A study of Mus musculus with 9 samples.

Results

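The deep-layer pyramidal neuron genes are 10 genes, chosen by name, that mark or specify the neurons of layers 5 and 6 of the cerebral cortex. All 10 were found in both deposited tables, which list 22496 and 23624 genes. Their levels were followed by bulk RNA sequencing in 9 libraries of newborn (P0) mouse cortex. There were 3 libraries labelled ShhN IUE, where IUE stands for in utero electroporation and ShhN for the active N-terminal fragment of the morphogen SHH (Sonic hedgehog). Another 3 libraries came from hGFAP-Cre, SmoM2f/+ mice, which carry 1 conditional allele of SmoM2, an activated form of the SHH transducer Smoothened. Cre in these mice is driven by the human GFAP promoter, which is active in radial glial progenitors. The reference was 3 libraries of wild-type littermates. All animals were of a mixed background of C57BL/6J, 129S6 and CD1. No group was labelled as electroporated without ShhN, so effects of the electroporation and of ShhN cannot be told apart. The age at electroporation, the share of cells reached, and whether replicates were separate animals or pools are not given in the sources used here, so the p-values cover no more than the spread seen among these libraries.

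Pyramidal neurons of the cortex are born from dorsal progenitors in an inside-out order, deep layers before upper layers. FEZF2 directs the subcerebral fate of layer 5, largely with its downstream factor BCL11B. TBR1 and SOX5 hold FEZF2 and BCL11B down in the corticothalamic neurons of layer 6. For description the 10 genes were put in 2 working groups. Layer 6 and corticothalamic neurons are represented by Tbr1, Tle4, Foxp2, Zfpm2 and Sox5. Layer 5 and subcerebral neurons are represented by Fezf2, Bcl11b, Ldb2, Crym and Nfe2l3.

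The genes differ in size and in the letters around their starts. In GRCm38 coordinates of the tables, Tbr1 lies on chromosome 2 from 61802930 to 61814114, Fezf2 on chromosome 14 from 12341892 to 12345865 and Bcl11b on chromosome 12 from 107910403 to 108003602. The longest is Sox5, on chromosome 6 from 143828425 to 144781977, where exons of the antisense gene Sox5os1 overlap its own in GENCODE M21. Without stated strand use, reads of the 2 cannot be told apart. RefSeq promoters (GRCm38.p6, 250 bases before to 50 after a start) matched 6 of the 10 genes, with 7 promoters, and left Foxp2, Zfpm2, Ldb2 and Crym without a match. The promoters of 3 transcription factor genes that stand for the 2 programmes are shown in gene orientation, since Tbr1 and Bcl11b fell in both interventions while Fezf2 did not pass the test in either. Capitals mark any match on either strand to GACCACCCA (bound by GLI factors, the effectors of SHH), AGGTGTGA (bound by T-box factors such as TBR1), ACAAAG (bound by SOX factors) or TATAAA (a core promoter element). The windows are chr2:61804203-61804502 on the plus strand for Tbr1, chr12:108003365-108003664 on the minus strand for Bcl11b and chr14:12345816-12346115 on the minus strand for Fezf2.
Tbr1: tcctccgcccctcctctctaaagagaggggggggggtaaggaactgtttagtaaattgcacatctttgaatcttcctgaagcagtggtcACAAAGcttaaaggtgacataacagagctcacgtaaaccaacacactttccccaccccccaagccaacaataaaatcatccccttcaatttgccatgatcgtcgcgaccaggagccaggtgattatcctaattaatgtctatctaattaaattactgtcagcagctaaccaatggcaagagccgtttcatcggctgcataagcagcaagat
Bcl11b: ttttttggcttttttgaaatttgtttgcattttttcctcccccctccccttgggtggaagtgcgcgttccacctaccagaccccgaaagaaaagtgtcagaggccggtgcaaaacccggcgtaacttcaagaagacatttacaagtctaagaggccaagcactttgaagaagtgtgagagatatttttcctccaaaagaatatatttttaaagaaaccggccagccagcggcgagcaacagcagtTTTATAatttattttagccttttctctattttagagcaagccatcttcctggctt
Fezf2: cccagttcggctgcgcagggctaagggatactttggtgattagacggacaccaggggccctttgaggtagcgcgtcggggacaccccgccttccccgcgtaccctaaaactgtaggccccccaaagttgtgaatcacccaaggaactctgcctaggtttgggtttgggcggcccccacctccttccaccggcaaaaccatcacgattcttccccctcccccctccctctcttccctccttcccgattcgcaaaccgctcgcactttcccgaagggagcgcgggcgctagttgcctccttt
The SOX letters stand 161 bases before the Tbr1 start, and are held by 18.7% of all 32851 RefSeq promoters. The core promoter letters stand on the opposite strand 5 bases before the Bcl11b start and on the same strand 108 bases before the Nfe2l3 start, and 13.6% of promoters hold them. The GLI and T-box letters, held by 0.253% and 1.275% of promoters, were in none of the 7 windows. The CpG content of the 7 windows ran from 0.256 times the expected number in Sox5 to 1.10 times in a Tle4 promoter, against a median of 0.384 over all promoters. The Sox5 window (chr6:143947057-143947356, minus strand) belongs to a start deep inside the gene. It does not describe the letters at the outer end of Sox5. The Tbr1 window also lies inside the gene span given above.

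Totals were 15376071 to 19604672 counts in ShhN IUE, 23625702 to 26923127 in SmoM2 and 18610507 to 21694348 in wild-type libraries. Shh itself was counted 51, 52 and 455 times in ShhN IUE and 5, 15 and 9 times in SmoM2 cortex, against 36, 62 and 31 in wild type. ShhN IUE libraries 1 and 2 thus lay within the wild-type range for the delivered gene and library 3 stood apart (log2 fold change 2.40 ± 0.89, SE, edgeR adjusted p = 0.0693 for ShhN IUE), and the sources used here do not say whether reads of the construct count towards Shh. The pathway target Gli1 was counted 512, 466 and 1100 times in ShhN IUE and 1290, 1007 and 1303 times in SmoM2 cortex, against 109, 201 and 141 in wild type. Neurod6, a marker of cortical pyramidal neurons, was present in every library, with 320, 306 and 237 FPKM (fragments scaled for transcript length and sequencing depth) in ShhN IUE, against 239, 225 and 239 FPKM in wild type of the same table, and with 263, 261 and 266 FPKM in SmoM2, against 238, 225 and 237 FPKM in wild type of its table. Other genes of pyramidal neurons did not all stay level, as given below. The same wild-type libraries stand in both tables but were quantified separately, so each group was set against wild type of its own table. The wild-type counts of 7 of the 10 genes agreed between tables within 0.1 on the log2 scale. Those of Foxp2 (4124 in the SmoM2 table and 2268 in the ShhN IUE table), Bcl11b (11734 and 16139) and Sox5 (12456 and 11336) did not, and their fold changes depend on the table. In the plot of this ratio the bars of these 3 genes leave the band of agreement.

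**Figure D1:**
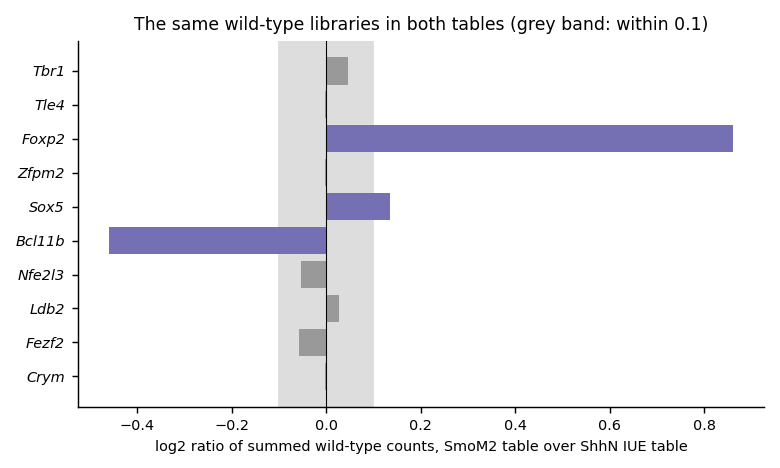
Log2 ratio of wild-type counts, summed over 3 libraries, in the SmoM2 table over the ShhN IUE table for each gene. Foxp2 at 0.86, Bcl11b at -0.46 and Sox5 at 0.14 lie outside the shaded band of 0.1 either way, and the other 7 lie inside.

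In wild-type cortex of both tables Tbr1 had the highest level per length and Foxp2 the lowest, with 53.0 ± 5.92 and 1.51 ± 0.14 FPKM in the ShhN IUE table and 54.9 ± 5.32 and 2.77 ± 0.499 FPKM in the SmoM2 table (SD, n = 3). Tbr1 stood apart from Fezf2, the next in order, in both tables. Fezf2, Bcl11b, Tle4, Nfe2l3 and Ldb2 followed with overlapping ranges of neighbours, between 17.3 and 29.7 FPKM on average in the ShhN IUE table. Sox5, Zfpm2 and Crym came next, and Crym did not stand apart from Foxp2. In SmoM2 cortex Fezf2 (29.9 ± 3.28 FPKM) and Tbr1 (28.0 ± 0.39 FPKM) shared the highest levels with overlapping ranges.

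In ShhN IUE cortex 8 of the 10 genes fell and the other 2, Fezf2 and Crym, did not pass the test. All 5 layer 6 genes fell, as did Bcl11b, Ldb2 and Nfe2l3. The median log2 fold change of the 10 genes was -0.84, against -0.0038 over all 16180 genes tested. In all, 17.2% of genes tested were lower and 16.1% higher, 33.3% in either direction, at an adjusted p under 0.05 (edgeR quasi-likelihood test with Benjamini-Hochberg adjustment over all genes). Without ShhN IUE library 3, which had the most Shh counts, 8 of the 10 genes were lower as well. None of the 10 rose, and 0 did at an unadjusted p under 0.05, with DESeq2 or with limma-voom. In bulk tissue fewer cells of a type and less RNA per cell cannot be told apart.

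In SmoM2 cortex 7 of the 10 genes fell and 1, Crym, rose, while Fezf2 and Ldb2 did not pass the test. The 5 layer 6 genes fell here too, with Bcl11b and Nfe2l3. The median log2 fold change was -0.97, against -0.0072 over all 16485 genes tested. Of these, 9.29% were lower and 9.59% higher, 18.9% in either direction, by the same test. Both comparisons share the wild-type libraries and are therefore not independent of each other.

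**Figure D2:**
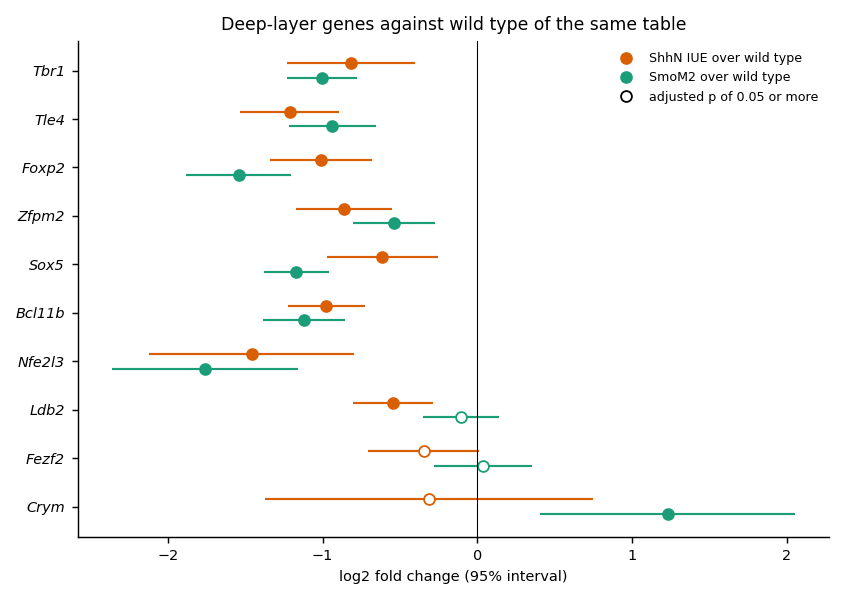
Log2 fold changes of the 10 genes over wild type of the same table, with 95% intervals, for ShhN IUE and SmoM2. Filled points passed an adjusted p of 0.05. Tbr1, Tle4, Foxp2, Zfpm2, Sox5, Bcl11b and Nfe2l3 lie below 0 in both, Fezf2 lies near 0 in SmoM2, and Crym lies at 1.23 in SmoM2.

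Among the layer 6 genes, Tbr1 encodes the T-box factor that specifies corticothalamic neurons. Its level was 35.9, 33.7 and 23.7 FPKM in ShhN IUE libraries, against 57.8, 46.4 and 55.0 FPKM in wild type, and 28.0, 27.6 and 28.3 FPKM in SmoM2 libraries, against 58.7, 48.8 and 57.1 FPKM in wild type. Every intervention library was below every wild-type library, and the SmoM2 libraries lay close together. The log2 fold change was -0.81 ± 0.18 in ShhN IUE (SE, n = 3 per group, edgeR adjusted p = 0.0114) and Tbr1 was 50.1% lower in SmoM2 (SE of the log2 fold change 0.10, edgeR adjusted p = 0.000655).

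Tle4, a Groucho-type corepressor enriched in corticothalamic neurons, had 10.9, 11.5 and 10.1 FPKM in ShhN IUE libraries, against 27.9, 21.1 and 24.0 FPKM in wild type. The SmoM2 libraries had 12.4, 13.4 and 13.1 FPKM, against 27.9, 21.1 and 23.9 FPKM in wild type. Neither pair of groups overlapped. Tle4 fell by 1.21 on the log2 scale in ShhN IUE (SE 0.14, edgeR adjusted p = 0.00107) and by 0.94 in SmoM2 (SE 0.12, edgeR adjusted p = 0.00217).

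Foxp2, a forkhead factor of layer 6 neurons that striatal and some thalamic neurons also express, had 0.855, 0.673 and 0.802 FPKM in ShhN IUE libraries, against 1.64, 1.36 and 1.54 FPKM in wild type. In SmoM2 libraries it had 0.886, 1.07 and 0.953 FPKM, against 2.42, 2.55 and 3.34 FPKM in wild type of that table. Both pairs of groups were apart, although the wild-type level itself differed between tables. The log2 fold changes were -1.01 ± 0.14 in ShhN IUE (SE, edgeR adjusted p = 0.00213) and -1.54 ± 0.15 in SmoM2 (edgeR adjusted p = 0.000588), and the difference between them was not tested because the wild-type counts do not match.

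Zfpm2, a zinc finger cofactor of GATA factors that marks corticothalamic neurons, had 3.97, 3.49 and 3.54 FPKM in ShhN IUE libraries, against 7.15, 6.12 and 6.09 FPKM in wild type. Levels in SmoM2 were 4.77, 4.16 and 4.66 FPKM, against 7.15, 6.12 and 6.08 FPKM in wild type. The groups did not overlap in either table. It fell by 0.86 in ShhN IUE (SE 0.14, edgeR adjusted p = 0.00316) and by 0.54 in SmoM2 (SE 0.12, edgeR adjusted p = 0.0158) on the log2 scale. The SmoM2 call did not hold when SmoM2 library 2 or 3 was left out (edgeR adjusted p = 0.0717 and 0.0652).

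Sox5, a SOX factor that controls the timing and subtype of deep-layer neurons, had 7.88, 6.18 and 5.25 FPKM in ShhN IUE libraries, against 9.74, 9.12 and 9.85 FPKM in wild type. In SmoM2 libraries it had 4.54, 4.95 and 4.77 FPKM, against 11.2, 10.5 and 9.72 FPKM in wild type. The groups were apart in both tables. The difference between the falls was not tested, because the wild-type counts of Sox5 do not match. The log2 fold change was -0.61 ± 0.16 in ShhN IUE (SE, edgeR adjusted p = 0.0194) and -1.17 ± 0.09 in SmoM2 (edgeR adjusted p = 0.00028). The ShhN IUE call did not hold when ShhN IUE library 2, wild-type library 1 or wild-type library 3 was left out (edgeR adjusted p = 0.0607, 0.0594 and 0.0607).

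**Figure D3:**
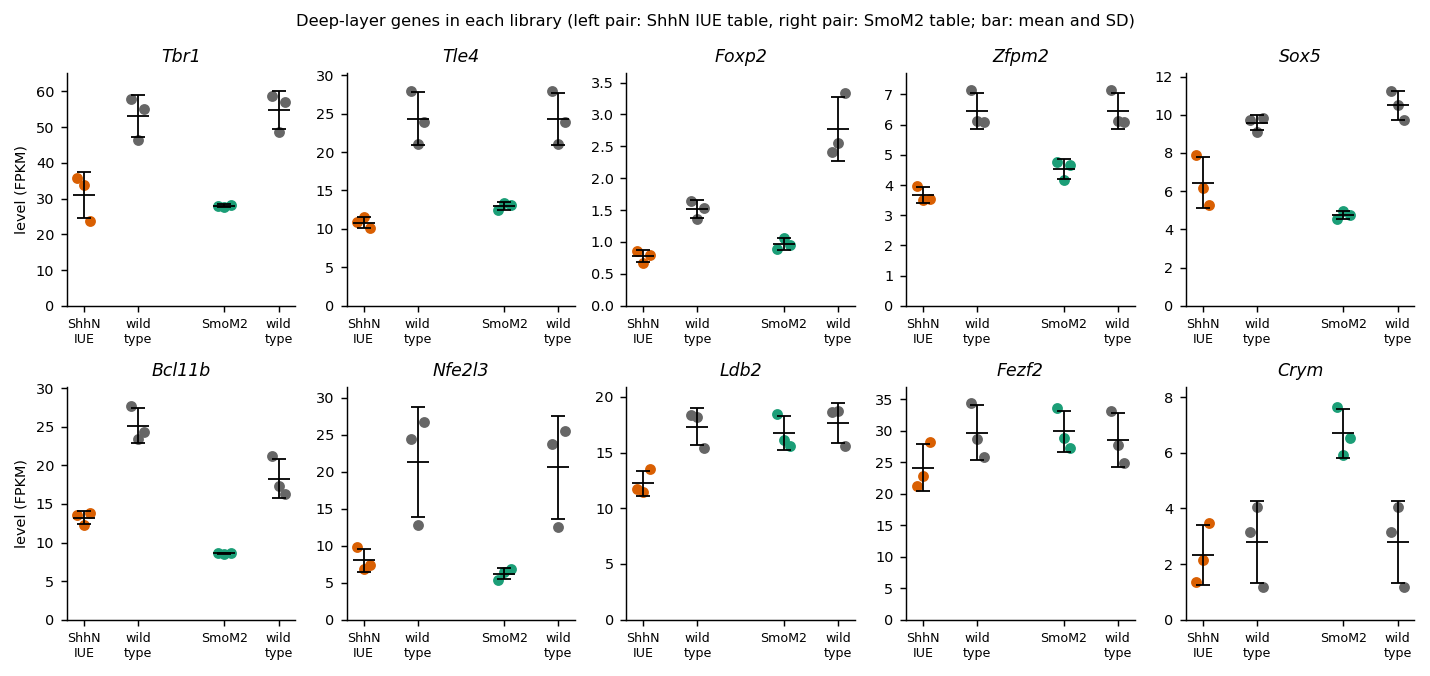
Level of each gene in FPKM (vertical axes, each from 0) in every library, with mean and SD, for ShhN IUE beside wild type of its table and SmoM2 beside wild type of its table. The intervention libraries lie below wild type for the 5 layer 6 genes in the upper row and for Bcl11b and Nfe2l3, while those of Fezf2 overlap wild type in both tables and those of Crym lie above wild type in SmoM2.

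The layer 5 group was mixed. Fezf2, the selector gene of subcerebral neurons, had 21.2, 22.9 and 28.3 FPKM in ShhN IUE libraries, against 34.5, 28.7 and 25.9 FPKM in wild type, and 33.6, 28.9 and 27.2 FPKM in SmoM2 libraries, against 33.2, 27.7 and 24.8 FPKM in wild type. Its groups overlapped in both tables. The log2 fold change was -0.35 ± 0.15 in ShhN IUE (SE, 95% interval -0.70 to 0.0080, edgeR adjusted p = 0.117) and 0.04 ± 0.14 in SmoM2 (95% interval -0.28 to 0.35, edgeR adjusted p = 0.878).

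Bcl11b, a zinc finger factor that acts downstream of FEZF2 in corticospinal neurons, had 13.6, 12.2 and 13.9 FPKM in ShhN IUE libraries, against 27.7, 23.4 and 24.3 FPKM in wild type. SmoM2 cortex had 8.60, 8.47 and 8.67 FPKM, against 21.2, 17.4 and 16.3 FPKM in wild type. Each intervention group lay wholly below wild type. It fell by 0.98 in ShhN IUE (SE 0.11, edgeR adjusted p = 0.000997) and by 1.12 in SmoM2 (SE 0.12, edgeR adjusted p = 0.000767) on the log2 scale. Bcl11b is also expressed by striatal projection neurons and some interneurons.

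Nfe2l3, a basic leucine zipper factor related to NRF2, had 9.84, 6.88 and 7.34 FPKM in ShhN IUE libraries, against 24.4, 12.8 and 26.7 FPKM in wild type. In SmoM2 libraries it had 5.35, 6.43 and 6.89 FPKM, against 23.7, 12.5 and 25.5 FPKM in wild type. Wild-type library 2 was low among the wild type but above all intervention libraries. The falls, of 1.46 in ShhN IUE (SE 0.29, edgeR adjusted p = 0.0075) and 1.76 in SmoM2 (SE 0.26, edgeR adjusted p = 0.00357) on the log2 scale, were the largest of the 10 genes in both comparisons.

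Ldb2, a cofactor of LIM-domain factors that marks subcerebral neurons, had 11.8, 11.5 and 13.5 FPKM in ShhN IUE libraries, against 18.4, 18.2 and 15.4 FPKM in wild type. The groups were apart, and Ldb2 was 31.5% lower (log2 fold change -0.54 ± 0.11, SE, edgeR adjusted p = 0.00886). Its SmoM2 levels were 18.5, 16.2 and 15.6 FPKM, against 18.7, 18.7 and 15.6 FPKM in wild type, and the groups overlapped (log2 fold change -0.11 ± 0.11, SE, 95% interval -0.35 to 0.14, edgeR adjusted p = 0.534).

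Crym, a thyroid hormone binding protein that marks corticospinal neurons, had 1.36, 2.16 and 3.47 FPKM in ShhN IUE libraries, against 3.15, 4.06 and 1.18 FPKM in wild type, with wide overlap (log2 fold change -0.31 ± 0.46, SE, edgeR adjusted p = 0.63). In SmoM2 libraries it had 7.64, 5.92 and 6.54 FPKM, against 3.16, 4.06 and 1.18 FPKM in wild type. All SmoM2 libraries were above all wild-type libraries, and Crym rose 2.35-fold (log2 fold change 1.23 ± 0.36, SE, edgeR adjusted p = 0.0472). The call was lost without SmoM2 library 1, 2 or 3 (edgeR adjusted p = 0.137, 0.0889 and 0.114), without wild-type library 1 (edgeR adjusted p = 0.0651) and with upper quartile scaling (edgeR adjusted p = 0.0541). Without wild-type library 3, where Crym was lowest, its log2 fold change was 0.88.

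By the deposited q-values in the authors' deposited table, 8 of the 10 genes passed 0.05 in each comparison, and all 8 were also called here. The same q-values passed 0.05 for 20.9% of all genes listed in ShhN IUE and 12.1% in SmoM2. The authors' deposited table marked fewer of the 10 as changed. In ShhN IUE it marked 2 down (Tle4 and Nfe2l3). In SmoM2 it marked 4 down (Bcl11b, Nfe2l3, Foxp2 and Sox5) and 1 up (Crym). The share of all genes with such a mark was not counted, so these numbers cannot be set against it. Groups did not overlap in TMM-scaled counts for 8 genes that were lower in ShhN IUE, and for 7 that were lower and 1 that was higher in SmoM2. Over all genes tested, 24.9% were lower and 24.5% higher without overlap in ShhN IUE, 49.4% in either direction, and in SmoM2 19.7% were lower and 20.4% higher, 40.1% in either direction.

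The 2 interventions were compared directly for the 7 genes whose wild-type counts agreed between tables, in a fit of all 9 libraries over 12349 such genes. Crym was higher in SmoM2 than in ShhN IUE, with 35.8 ± 4.52 and 12.4 ± 5.34 CPM (counts scaled to the total of these 12349 genes, so higher than over all genes; SD, n = 3; log2 fold change 1.54 ± 0.39, SE, edgeR adjusted p = 0.0255). Ldb2 was also higher in SmoM2, with 157 ± 14.4 and 115 ± 7.19 CPM in SmoM2 and ShhN IUE (log2 fold change 0.45 ± 0.10, SE, edgeR adjusted p = 0.0154). In this fit 8.45% of genes were higher and 8.07% lower in SmoM2. The other 5 genes did not pass, with 95% intervals of the log2 fold change from -0.50 to 0.19 for Tbr1, -0.0068 to 0.52 for Tle4, 0.039 to 0.56 for Zfpm2, -0.94 to 0.19 for Nfe2l3 and 0.0050 to 0.62 for Fezf2. None was lower in SmoM2, and 0 were at an unadjusted p under 0.05, with DESeq2 or with limma-voom. The Crym call did not hold with any one SmoM2 library, ShhN IUE library 1 or ShhN IUE library 2 left out (edgeR adjusted p up to 0.0866) and with the replicate number as a block (edgeR adjusted p = 0.0586). The Ldb2 call did not hold with SmoM2 library 1 or ShhN IUE library 1 left out (edgeR adjusted p = 0.0597 and 0.0601).

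Ratios within a library do not depend on scaling between libraries. Relative to Neurod6, a basic helix-loop-helix factor of cortical pyramidal neurons of all layers, Tbr1 stood at 0.112, 0.110 and 0.0997 in ShhN IUE libraries, against 0.241, 0.206 and 0.230 in wild type, on the FPKM scale. In SmoM2 libraries this ratio was 0.106, 0.106 and 0.106, against 0.246, 0.216 and 0.241 in wild type. In both tables the groups were apart (two-sided exact permutation p = 0.1, the lowest reachable with 3 libraries a group). No other gene shared by pyramidal neurons of all layers was used as the reference, and the ratio depends on that choice. Neurod2, a related factor, had log2 fold changes of -0.49 ± 0.19 in ShhN IUE (SE, edgeR adjusted p = 0.0775) and -0.82 ± 0.15 in SmoM2 (edgeR adjusted p = 0.00866). Relative to Neurod2 the fall of Tbr1 would therefore be smaller. The ratio of Fezf2 to Neurod6 averaged 0.0867 ± 0.0285 in ShhN IUE, against 0.127 ± 0.0177 in wild type, and 0.114 ± 0.0128 in SmoM2, against 0.122 ± 0.0173 in wild type (SD, n = 3), and the groups overlapped in both tables.

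Levels were also set against Fezf2. The ratio of Tle4 to Fezf2, in FPKM, averaged 0.457 ± 0.086 in ShhN IUE, against 0.823 ± 0.0956 in wild type, and 0.438 ± 0.0595 in SmoM2, against 0.855 ± 0.101 in wild type (SD, n = 3), without overlap in either table (two-sided exact permutation p = 0.1). Within the layer 5 group, Bcl11b over Fezf2 was also lower, with 0.554 ± 0.0761 in ShhN IUE, against 0.853 ± 0.0742 in wild type, and 0.289 ± 0.0313 in SmoM2, against 0.641 ± 0.0153 in wild type, without overlap in either table (two-sided exact permutation p = 0.1). A lower ratio to Fezf2 was therefore not limited to layer 6 genes, though not every layer 5 gene had it. Ldb2 over Fezf2 averaged 0.511 ± 0.039 in ShhN IUE, against 0.587 ± 0.0509 in wild type. In SmoM2 it averaged 0.560 ± 0.0105, against 0.623 ± 0.0566 in wild type, with overlap in both tables. Crym over Fezf2 averaged 0.0937 ± 0.0293 in ShhN IUE, against 0.0928 ± 0.048 in wild type, with overlap. In SmoM2 it was higher without overlap, at 0.224 ± 0.018, against 0.0964 ± 0.0495 in wild type. Tbr1 over Fezf2 averaged 0.942 ± 0.103 in SmoM2, against 1.94 ± 0.309 in wild type, without overlap. In ShhN IUE libraries Tbr1 over Fezf2 was 1.69, 1.47 and 0.835, against 1.67, 1.62 and 2.12 in wild type, and the groups overlapped.

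**Figure D4:**
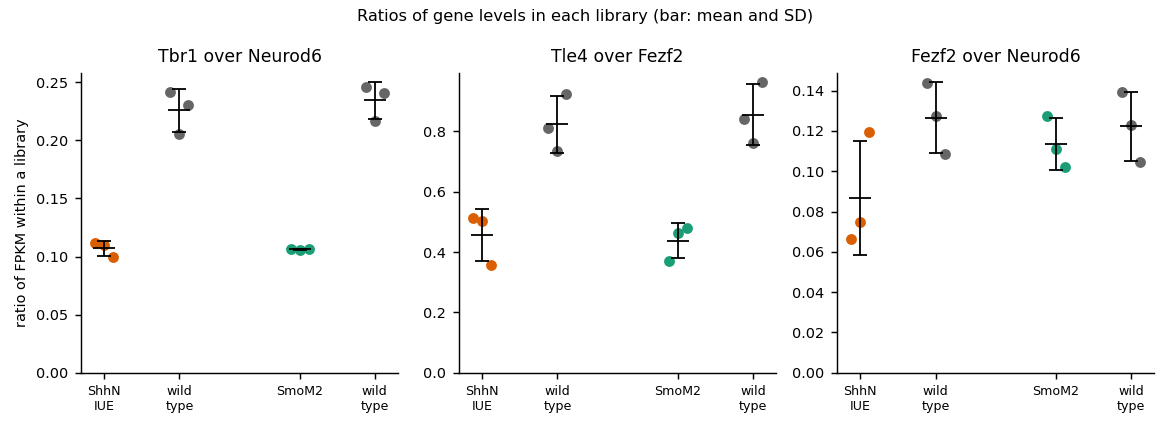
Ratios of FPKM between 2 genes within each library (vertical axes, each from 0), with mean and SD, for ShhN IUE beside wild type of its table and SmoM2 beside wild type of its table. Tbr1 over Neurod6 and Tle4 over Fezf2 lie below wild type in every intervention library, and Fezf2 over Neurod6 overlaps wild type.

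Other genes of the deep layers, from lists chosen by known layer expression, were divided as well. The counts of every list below stand beside the shares of all genes tested. These were 17.2% lower and 16.1% higher in ShhN IUE, and 9.29% lower and 9.59% higher in SmoM2. Of 10 further layer 6 genes 4 fell in both ShhN IUE and SmoM2, the same 4. Hs3st4, a heparan sulfate sulfotransferase gene, had log2 fold changes of -1.02 ± 0.14 in ShhN IUE and -1.10 ± 0.13 in SmoM2 (SE), and Wnt7b, a WNT ligand, of -0.97 ± 0.17 and -1.73 ± 0.16. Nxph3 (-1.12 ± 0.19 in ShhN IUE and -1.32 ± 0.18 in SmoM2) and Lmo3 (-1.36 ± 0.14 and -0.91 ± 0.17) also fell. The wild-type counts of Lmo3 do not match, with 5798, 4855 and 4492 in the ShhN IUE table and 3725, 2866 and 3031 in the SmoM2 table. The difference between its falls was not tested. Ntsr1, the neurotensin receptor that marks corticothalamic neurons, did not pass, with log2 fold changes of 0.36 ± 0.12 in ShhN IUE (edgeR adjusted p = 0.0542) and 0.14 ± 0.13 in SmoM2 (edgeR adjusted p = 0.517). Grik3, a kainate receptor subunit, rose in ShhN IUE by 0.27 ± 0.08, a call that did not hold with library 1 or 3 of ShhN IUE left out, nor with library 2 or 3 of wild type left out.

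Of 10 further layer 5 genes 3 fell in ShhN IUE (Crim1, S100a10 and Tshz2), and in SmoM2 2 fell (Pcp4 and Rbp4) and 1, Etv1, rose. The ShhN IUE count was 0 with ShhN IUE library 1, ShhN IUE library 2 or wild-type library 1 left out, and 1 with wild-type library 2 left out. The SmoM2 count of falls was 1 without any one SmoM2 library or without wild-type library 1 or 2, and that of rises was 0 without any one SmoM2 library or without wild-type library 1. The median log2 fold change of this list was -0.37 in ShhN IUE and 0.0070 in SmoM2. Of 8 subplate genes 2 fell in ShhN IUE and 4 in SmoM2, with Cplx3, a complexin of subplate neurons, at -4.03 ± 0.51 in ShhN IUE and -2.77 ± 0.28 in SmoM2, and Tmem163 at -1.24 ± 0.23 and -1.58 ± 0.17 (SE). Cplx3 was near the floor, with 1, 4 and 1 counts in ShhN IUE and 9, 6 and 7 in SmoM2, against 36, 43 and 39 in wild type. The wild-type counts of Tmem163 differ between tables, and the difference between its falls was not tested.

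Among upper-layer genes 3 of 12 fell and 2 rose in ShhN IUE, with a median log2 fold change of -0.20. These ShhN IUE counts are near the shares of all genes, 17.2% lower and 16.1% higher. In SmoM2 7 of the upper-layer genes fell and 2 rose, with a median of -0.54. The count of rises was 1 in ShhN IUE with library 1 or 2 of either group left out, and 1 in SmoM2 with SmoM2 library 1, SmoM2 library 3 or wild-type library 3 left out. Of 10 glutamatergic cortical neuron genes 3 fell in each comparison, with median log2 fold changes of -0.10 in ShhN IUE and -0.43 in SmoM2. Slc17a6 fell in both (-0.78 ± 0.14 in ShhN IUE and -1.22 ± 0.14 in SmoM2, SE). Slc17a7 and Mef2c fell in ShhN IUE alone, and Neurod2 and Emx1 in SmoM2 alone. Neurod6 itself did not pass (0.25 ± 0.13 in ShhN IUE and 0.14 ± 0.08 in SmoM2).

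**Figure D5:**
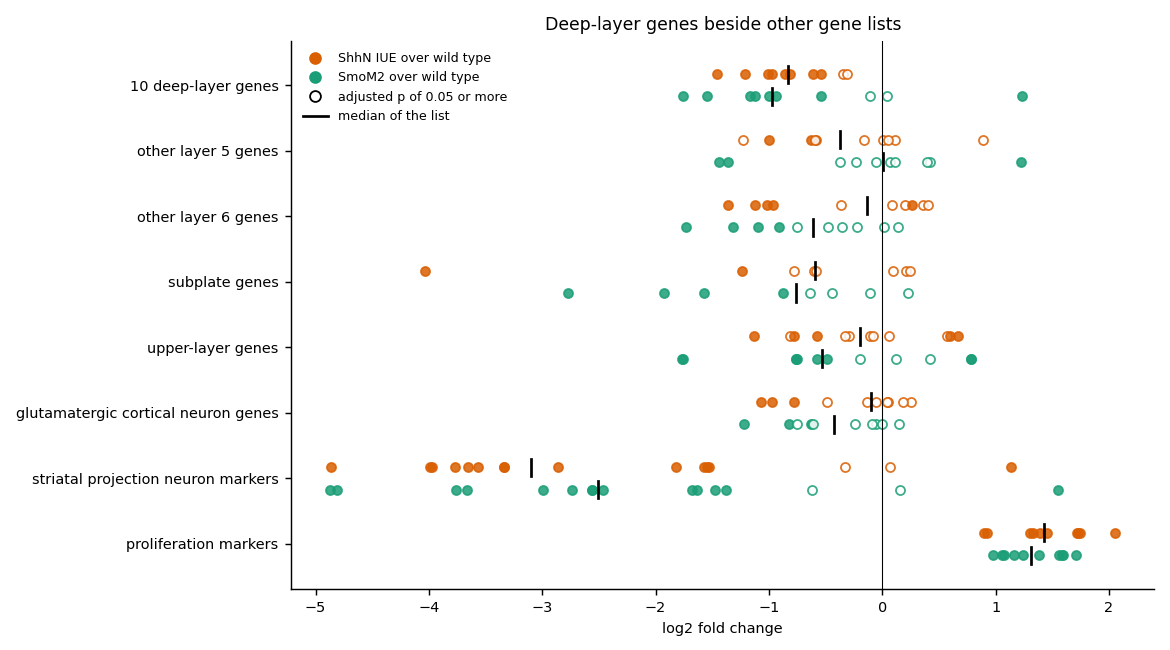
Log2 fold changes over wild type of the 10 deep-layer genes and of 7 other lists, 1 point per gene, for ShhN IUE above SmoM2 in each list. Filled points passed an adjusted p of 0.05 and black bars are list medians. The deep-layer medians of -0.84 and -0.97 lie between those of the striatal markers (-3.10 and -2.51) and 0, and the proliferation markers lie above 0.

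Markers of neurons that a dissected cortex can hold beside its pyramidal neurons did not all move with these results. Striatal markers mostly fell and interneuron markers were mixed. Of the 6 thalamic markers tested 1 fell in ShhN IUE and 1 rose in SmoM2, and the others did not pass. Of 16 striatal projection neuron markers 13 fell and 1 rose in each comparison, and their summed level was 38.9 to 51.5 FPKM in ShhN IUE, against 73.6 to 95.7 FPKM in wild type, and 48.4 to 50.6 FPKM in SmoM2, against 71.4 to 94.1 FPKM in wild type. None of the 16 was at 0 in any ShhN IUE or SmoM2 library. Of these, Drd2, a dopamine receptor gene, had log2 fold changes of -3.65 ± 0.38 in ShhN IUE and -3.76 ± 0.40 in SmoM2 (SE). Striatal neurons also express Bcl11b and Foxp2, and the part of the striatal markers in the falls of these genes was not tested. Of 11 cortical interneuron markers 6 fell in each comparison, with 3 rises in ShhN IUE and 2 in SmoM2, where 1 rose without SmoM2 library 2 or 3. Their summed level was 272 to 378 FPKM in ShhN IUE, against 365 to 411 FPKM in wild type, and 208 to 238 FPKM in SmoM2, against 367 to 415 FPKM in wild type. Of the thalamic markers Gbx2 and Lhx9 were too low to be tested. The list summed to 40.8 to 41.9 FPKM in ShhN IUE, against 34.8 to 37.3 FPKM in wild type. In SmoM2 it summed to 35.2 to 41.7 FPKM, against 31.7 to 37.4 FPKM in wild type. Lhx2, also a cortical gene, made up most of the sum in the ShhN IUE table, with 29.2, 32.2 and 28.3 FPKM, against 25.2, 24.0 and 25.8 FPKM in wild type. These sums therefore say little about the other thalamic markers. Ntng1 fell in ShhN IUE (log2 fold change -0.93 ± 0.27, SE, edgeR adjusted p = 0.0305). Rora, at -1.40 ± 0.53 in ShhN IUE, did not pass (edgeR adjusted p = 0.0756).

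Progenitor and dividing-cell markers mostly moved opposite to the deep-layer genes, and astrocyte markers did so only in part. Of 9 radial glia and intermediate progenitor markers 6 rose and none fell in ShhN IUE, and 5 rose and 1 fell in SmoM2. Pax6, a factor of cortical radial glia, had log2 fold changes of 2.03 ± 0.14 in ShhN IUE and 1.10 ± 0.13 in SmoM2 (SE). Eomes, the factor of intermediate progenitors, fell by 1.45 in SmoM2 (SE 0.25) and did not pass in ShhN IUE (0.76 ± 0.42). The summed level of this list was 118 to 155 FPKM in ShhN IUE, against 53.0 to 74.4 FPKM in wild type, and 110 to 130 FPKM in SmoM2, against 53.7 to 67.7 FPKM in wild type. Of 7 astrocyte markers 4 rose and 1 fell in ShhN IUE, and 3 rose in SmoM2. The astrocyte rises numbered 1 to 2 in ShhN IUE with its library 3, or library 1 or 3 of wild type, left out, and 1 in SmoM2 with its library 1 or 3, or library 3 of wild type, left out. Their summed level had a median of 73.2 FPKM in ShhN IUE, against 47.2 FPKM in wild type, and of 88.8 FPKM in SmoM2, against 48.1 FPKM in wild type, and the groups did not overlap in either table. Proliferation markers rose as a whole list, 10 of 10 in each comparison, with median log2 fold changes of 1.42 in ShhN IUE and 1.31 in SmoM2. Their summed level was 54.6 to 69.0 FPKM in ShhN IUE, against 17.6 to 22.8 FPKM in wild type, and 47.7 to 63.3 FPKM in SmoM2, against 17.6 to 22.7 FPKM in wild type. The part of these 3 lists in the falls of the deep-layer genes was not tested.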

How the data were processed

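Read counts and FPKM values per gene and library, and q-values, were taken from the 2 tables the authors deposited, as named in the file headers. Per the submitters' processing notes, the tools were HISAT2, StringTie and edgeR. The same notes list the mouse builds mm10 and GRCm38.p4. Versions, strand use and the handling of shared reads are not given in the sources used here. The deposited p-values and q-values were used only beside the calls made here. The 10 genes, the lists and the tests were chosen with earlier results of these data known.

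Within each table, the deposited counts entered edgeR 4.0.16 (quasi-likelihood test, R 4.3.3, TMM scaling, default expression filter by group, Benjamini-Hochberg adjustment over all genes tested, threshold 0.05). Each SE is the absolute log2 fold change over the square root of F. SmoM2 was compared with ShhN IUE over genes whose summed wild-type counts, each with 5 added, agreed within 0.1 on the log2 scale, taking the mean of both tables' wild-type counts. FPKM served for levels and ratios. All 10 genes are named, with up to 4 genes of each other list by smallest adjusted p, and others named for their role were chosen after their values were seen. Alternatives were RLE and upper quartile scaling, other filters, DESeq2 1.42.0, limma-voom (limma 3.58.1), limma on log2(FPKM + 0.1), a replicate block, and leaving out each library. The functions were tested on simulated counts. Replicates differed by more than sampling noise (chi-square per degree of freedom 17.7 to 36.9), so none was merged.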

Additional observations from a re-analysis of the deposited data

Results flagged for a closer look

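Crym and Ldb2 differed between the 2 interventions in the direct test. The log2 fold change of SmoM2 over ShhN IUE was 1.54 for Crym and 0.45 for Ldb2 (edgeR adjusted p = 0.0255 and 0.0154). Crym was higher in 3 of 3 SmoM2 libraries than in every ShhN IUE library, and so was Ldb2. The groups were also apart for Tle4, Zfpm2 and Nfe2l3, which did not pass the test. Being apart therefore does not single out Crym and Ldb2, and the share of all genes without overlap was not counted for this comparison. Crym and Ldb2, both markers of layer 5 neurons, were flagged for their difference in the direct test. Each loses that call when some single libraries are left out. No outlier test was run on the groups of 3, beyond leaving out each library in turn.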

How the results depend on the processing

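With each library left out in turn, 7 to 8 of the 10 genes were called lower in ShhN IUE and 6 to 7 in SmoM2, the number called higher in SmoM2 was 0 to 1, and the number higher in SmoM2 than in ShhN IUE was 0 to 2. Over all genes tested, leaving out a library gave 1684 to 2325 lower in ShhN IUE and 601 to 1412 in SmoM2. Restricted to genes with agreeing wild-type counts, where 7 of the 10 are tested, 5 were lower in ShhN IUE and 4 in SmoM2. In these restricted fits 2098 of all 11957 genes were lower in ShhN IUE and 1243 of 12237 in SmoM2. With upper quartile scaling 0 of the 10 genes were higher in SmoM2. The replicate numbers did not pair the samples (correlations of deviations -0.32 to 0.28 for ShhN IUE and -0.17 to 0.055 for SmoM2, and not every library was closest to its own number). With the replicate block 2058 genes were lower and 1904 higher in ShhN IUE, against 2778 and 2602 without it, and in SmoM2 1200 and 1268, against 1531 and 1581. In the direct comparison 1 of the 7 deep-layer genes tested was higher in SmoM2 under the block, against 2 without it. Over all genes of that comparison, 697 were lower and 802 higher under the block, against 997 and 1043 without it. The values that changed sign did not pass in any of these fits: the log2 fold change of Crym in ShhN IUE ran from -0.684 to 0.0207, above 0 without wild-type library 2, and that of Fezf2 in SmoM2 from -0.0411 to 0.177, below 0 without SmoM2 library 1 or wild-type library 2 or 3. The cause was not tested. In settings other than leaving out a library, 87 of 87 member values kept direction and call in ShhN IUE, 86 of 87 in SmoM2 and 67 of 68 in the direct comparison. Crym, with 615 wild-type counts in the SmoM2 table, is the least deeply counted gene.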

Other observations

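Of 8 oligodendrocyte lineage genes 6 rose in ShhN IUE and 7 in SmoM2, and none fell in either comparison. Of 10 pan-neuronal genes 5 fell and 1 rose in ShhN IUE, and 2 fell and 1 rose in SmoM2, with median log2 fold changes of -0.30 in ShhN IUE and -0.20 in SmoM2. These counts are by edgeR adjusted p. The pan-neuronal falls in SmoM2 numbered 1 to 2, and the rises 0 to 2 in ShhN IUE and 0 to 1 in SmoM2, when single libraries were left out.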
